A study of Mus musculus with 12 samples.

Results

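The genes described here are those of haemoglobin and of the red blood cells that make it, measured in cochleae from 35delG homozygous and wild-type mice. Genes were chosen by name: the adult beta globins Hbb-bs and Hbb-bt, the adult alpha globins Hba-a1 and Hba-a2, the haem synthesis enzyme gene Alas2, the red cell anion exchanger gene Slc4a1 and Ahsp, the gene of a chaperone of alpha globin. Of these 7 names, 6 were found among the 37432 genes of the expression table, and Ahsp was not analysed here. The study removed the cochlea, the spiral organ of hearing, at postnatal day 14 and cut it into apical, middle and basal turns. Sequencing libraries were made from the total RNA collected, with 2 repeats of each genotype and turn and 12 libraries in all. The homozygous mice carried 35delG, a deletion of a G in Gjb2, on both alleles (Gjb2 35delG/35delG). They were males grown from 35delG/35delG embryonic stem cells by tetraploid complementation, on a background that was almost C57BL/6J, delivered by cesarean and nursed by ICR females. The wild-type mice were purchased males of the same age whose strain was not given in the sources used here, so genotype and origin cannot be told apart. The number of mice and of stem cell lines behind each library, and any removal of blood from the tissue, are not given in the sources used here. The study describes the repeats as biological. Since each cochlea was cut into all 3 turns, libraries of different turns can share animals, but the labels tie no library of one turn to one of another, so the libraries were treated as independent, and p-values for means over turns and for differences between turns do not allow for shared animals.

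Haemoglobin, the oxygen carrier of red blood cells, is built from alpha and beta globin chains that each hold a haem group. Red cells form from nucleated precursors in blood-forming tissue, in which Gata1 and Klf1 switch on the globin genes, Alas2 starts the synthesis of haem and Slc4a1, also called band 3, is built into the cell membrane. Young red cells that have lost the nucleus still carry globin mRNA while they circulate, so any tissue that holds blood yields some. The cochlea itself is not known as a source of red cells, although blood flows through its stria vascularis and its bony wall.

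The globins lie in a pair of clusters of near-identical copies, and on the mm10 coordinates of the expression table Hba-a1 (ENSMUSG00000069919.7) spans chr11:32283511-32284465 and Hba-a2 (ENSMUSG00000069917.7) spans chr11:32296489-32297298, both on the plus strand. Hbb-bs (ENSMUSG00000052305.6) spans chr7:103826534-103827928 and Hbb-bt (ENSMUSG00000073940.3) spans chr7:103812524-103813996, both on the minus strand. Alas2 (ENSMUSG00000025270.13) spans chrX:150547375-150570638 on the plus strand and Slc4a1 (ENSMUSG00000006574.15) spans chr11:102348824-102365280 on the minus strand. In the GENCODE M21 transcripts of GRCm38, the coding sequences of Hba-a1 and Hba-a2, each of 429 bases, differ by 1 base (C381T, the Hba-a1 base first, counted from the A of the start codon), and those of Hbb-bs and Hbb-bt, each of 444 bases, also differ by 1 base (C417T, the Hbb-bs base first). The stretches of 90 coding bases around these differences, all in exon 3, are shown because within them the copies of a pair differ only at the base in capitals.
Hba-a1 chr11:32284296-32284385 plus strand: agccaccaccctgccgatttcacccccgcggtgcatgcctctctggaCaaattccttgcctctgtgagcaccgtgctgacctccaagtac
Hba-a2 chr11:32297113-32297202 plus strand: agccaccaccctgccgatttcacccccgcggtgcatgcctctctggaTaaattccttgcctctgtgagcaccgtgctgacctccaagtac
Hbb-bs chr7:103826665-103826754 minus strand: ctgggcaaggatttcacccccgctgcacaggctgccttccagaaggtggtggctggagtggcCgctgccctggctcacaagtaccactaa
Hbb-bt chr7:103812656-103812745 minus strand: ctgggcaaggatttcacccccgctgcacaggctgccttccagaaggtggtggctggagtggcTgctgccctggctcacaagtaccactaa

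Of all windows of 150 bases, the read length, in 1 transcript of each gene, 51.6% of those of Hba-a1, 34.3% of Hba-a2, 41.3% of Hbb-bs and 49.3% of Hbb-bt occur in no other gene's transcript. Reads were paired, and these windows leave out the mate of a read. The authors kept uniquely mapped reads only, so the level of each single copy, and the share of a copy within its pair, is uncertain. In Alas2 91.4% of such windows are its own, the rest being shared with the adjoining gene Apex2, and in Slc4a1 100% are.

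Promoters are shown because the levels of the globins and Alas2 moved together, as described below. Start sites came from a table of RefSeq promoters (GRCm38.p6) that matched 5 of the 6 members, and no promoter of Slc4a1 was analysed here. The 250 bases before the start are printed, with matches in capitals to the letters AGATAA or TGATAA (bound by GATA factors), CACCC (bound by Klf1 and its relatives), CCAAT and ATATAA, each searched on both strands and free to overlap. That of Hba-a2 equals that of Hba-a1 over the 247 bases they share and is not printed. RefSeq and the expression table differ in where they start Hba-a1, Hbb-bt and Alas2, so that these windows reach into the gene span given above.
Hbb-bs chr7:103827929-103828178 minus strand: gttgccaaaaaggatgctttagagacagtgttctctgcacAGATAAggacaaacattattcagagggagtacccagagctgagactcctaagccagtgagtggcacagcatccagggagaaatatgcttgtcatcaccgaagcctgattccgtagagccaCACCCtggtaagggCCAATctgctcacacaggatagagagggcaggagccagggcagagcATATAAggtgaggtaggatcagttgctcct
Hbb-bt chr7:103813924-103814173 minus strand: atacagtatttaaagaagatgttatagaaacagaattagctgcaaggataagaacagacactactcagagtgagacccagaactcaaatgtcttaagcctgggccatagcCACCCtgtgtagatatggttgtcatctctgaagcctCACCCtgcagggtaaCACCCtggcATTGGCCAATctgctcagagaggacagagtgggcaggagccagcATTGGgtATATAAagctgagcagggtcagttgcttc
Hba-a1 chr11:32283422-32283671 plus strand: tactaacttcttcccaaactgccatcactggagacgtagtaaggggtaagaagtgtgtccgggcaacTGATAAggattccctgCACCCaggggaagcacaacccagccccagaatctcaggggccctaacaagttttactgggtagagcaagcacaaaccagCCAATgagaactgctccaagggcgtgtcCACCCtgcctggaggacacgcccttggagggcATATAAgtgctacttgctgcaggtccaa
Alas2 chrX:150547167-150547416 plus strand: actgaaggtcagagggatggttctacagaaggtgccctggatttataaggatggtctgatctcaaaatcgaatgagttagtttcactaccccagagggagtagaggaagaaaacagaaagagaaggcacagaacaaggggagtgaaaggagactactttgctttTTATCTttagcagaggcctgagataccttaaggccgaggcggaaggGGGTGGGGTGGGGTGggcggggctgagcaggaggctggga

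Hbb-bs held each of the 4 motifs once, Hba-a1 held CACCC in 2 places and each of the others once, and Hbb-bt held CACCC and CCAAT 3 times each and ATATAA once, with no match to the GATA letters in this window. Alas2 held CACCC 3 times and the GATA letters once, with neither CCAAT nor ATATAA in this window. Of the 32851 RefSeq promoters of that length, 16.6% held the GATA letters, 52% CACCC, 33.8% CCAAT, 9.1% ATATAA and 0.344% all 4. These matches are a description of the letters and not of binding.

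Levels are given as scaled FPKM, the authors' FPKM (a read density per transcript length and library size) divided by 1 factor per library, and differences as log2 of the scaled FPKM plus 1. FPKM holds no read counts, so neither the counting error of a value nor the sequencing depth is known, and the number of genes at 1 FPKM or more was between 13729 and 14703 per library. Gjb2 RNA does not check the genotype labels, since a deletion of 1 base need not remove the RNA. By quantitative PCR of the cochlea at the same age, the study reported less Gjb2 RNA in homozygous mice. In the libraries here the Gjb2 level (wild-type first) was 247.8 and 254 against 332 and 376 in the apical turn, 139.7 and 268 against 256 and 451 in the middle turn and 434 and 256 against 126 and 58.6 in the basal turn. The differences were 0.49, 0.81 and −1.94 in this order, none of them called by limma (adjusted p = 0.658, 0.319 and 0.0238). The first homozygous middle library stood apart from its repeat and, chosen after its values were seen, is treated separately below: it held the highest level of 12 of 12 cell cycle genes, each over 3-fold above the next library. Over all 36005 genes with any signal in at least 1 library, not filtered by level, it held the highest level of 10.7%. The other libraries held that of 4.5% to 10.8%. By over 3-fold it was highest in 3.14% of all genes. The second wild-type basal library was so in 3.49%, and the others in 0.967% to 1.82%. Genes that mark cochlear cells, 21 in all, summed to between 619.6 in the second homozygous basal library and 8496 in the first wild-type apical one. In libraries of whole tissue, fewer red cells and less RNA per red cell cannot be told apart.

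Both beta globins were highest in the wild-type basal libraries and in the first homozygous middle library. Hbb-bs was at 1757 and 3404 in the wild-type basal libraries and at 272 and 315 in the homozygous basal libraries. In the middle turn wild-type mice had 309 and 881 and homozygous mice 2022 and 343. In the apical turn the values were 267 and 128 against 165 and 689. Thus the genotypes did not overlap in the basal turn and overlapped in the other turns, and repeats of a group differed between 1.16-fold (homozygous basal) and 5.89-fold (homozygous middle). The highest library was 26.5-fold above the lowest, the second wild-type apical one, and Hbb-bs ranked between 11 and 276 among all genes of a library. Hbb-bt had 207 and 405 in wild-type basal against 34.7 and 42.2 in homozygous basal libraries, 39.3 and 104 against 359 and 50.8 in the middle turn, and 32.8 and 19.1 against 25.5 and 95.5 in the apical turn, the same order of libraries as Hbb-bs (Spearman's rho 1.0 over 12 libraries).

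The alpha globins showed the same high libraries. Hba-a1 was at 806 and 813 in the wild-type basal libraries, close to each other, and at 90.5 and 112 in the homozygous basal libraries. The middle turn values were 93.6 and 390.1 against 745 and 122 (wild-type first), and the apical ones 122 and 54.9 against 59.6 and 253. The genotypes did not overlap in the basal turn and overlapped in the other turns. Hba-a2 ran from 26.6 in the second wild-type apical library to 368 in the first wild-type basal library, with 322 in the second, 32.9 and 47.3 in the homozygous basal libraries and 309 in the first homozygous middle library. Its remaining libraries lay between 27.6 and 189.5.

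Summed over the 4 adult globin genes, the level was 3137 and 4944 in the wild-type basal libraries (mean 4041 ± 1278, SD, n = 2) and 429.9 and 517 in the homozygous basal libraries (mean 473 ± 61.3, SD, n = 2). The sum was 3435 in the first homozygous middle library and between 229 and 1565 in the other 7 libraries. The 4 genes together made up between 0.0726% and 1.17% of all FPKM of a library. Ordered by group mean, the sum was highest in the wild-type basal turn, followed by homozygous middle (1999.9 ± 2029, SD, n = 2), wild-type middle (1024 ± 764), homozygous apical (714 ± 618), homozygous basal (473 ± 61.3) and wild-type apical (358 ± 182). Each group overlapped with its neighbours in this order, so that neighbours did not differ beyond the spread of their repeats.

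Alas2, whose enzyme carries out the first step of haem synthesis in red cell precursors, followed the globins at a far lower level. It was at 35.4 and 47.1 in the wild-type basal libraries and at 4.99 and 5.81 in the homozygous basal libraries. The middle turn values were 5.77 and 22.5 against 36.2 and 8.11 (wild-type first), and the apical ones 5.60 and 2.75 against 3.23 and 11.9. As for the globins, the genotypes were apart in the basal turn and overlapped in the apical and middle turns.

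Slc4a1, which exchanges chloride for bicarbonate across the red cell membrane, followed the globins less closely. It was at 41.6 in the first homozygous middle library, 9.80-fold above the next library. The other homozygous middle library had 3.06, and the wild-type middle libraries had 0.240 and 1.89. In the basal turn the level was 4.25 and 1.10 (wild-type) against 0.685 and 0.803 (homozygous), and in the apical turn 1.93 and 0.258 against 0.521 and 2.43. Apart from the first homozygous middle library, every value was therefore under 5 scaled FPKM, where the log2 scale with 1 added understates a fold.

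**Figure D1:**
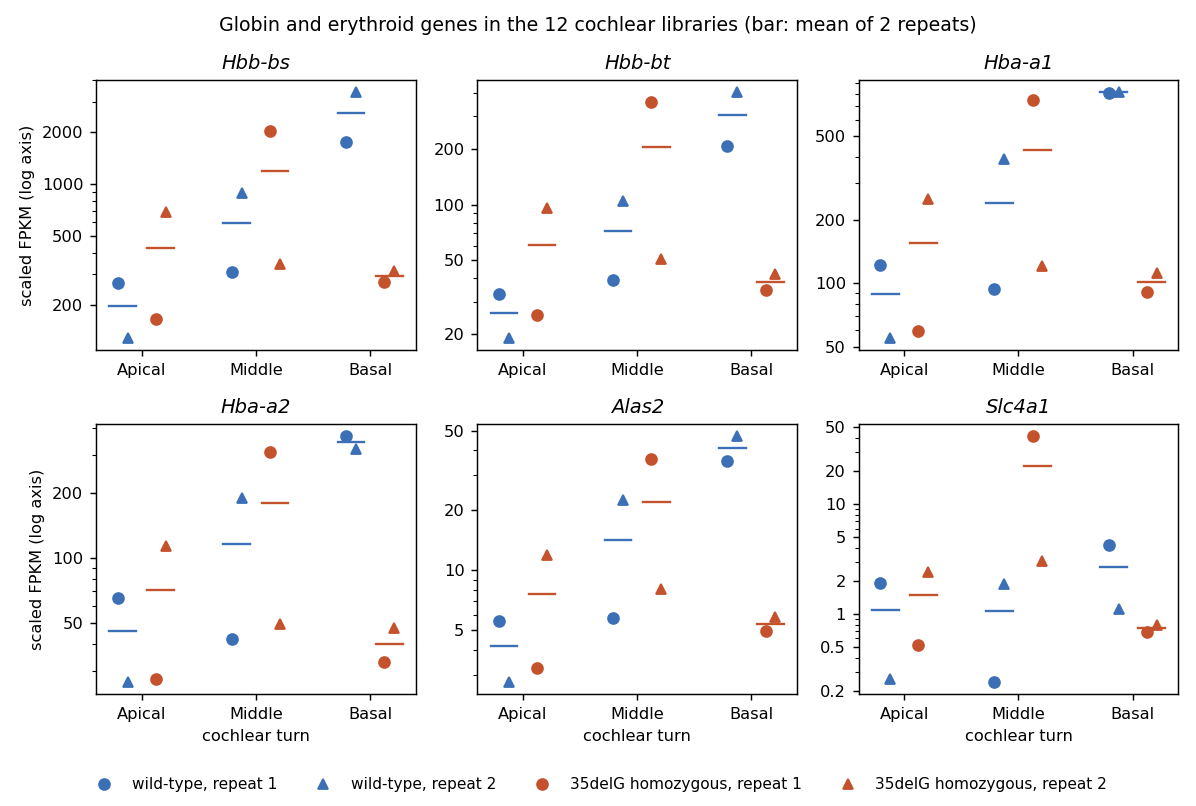
Scaled FPKM (log axis) of the 6 members in each of the 12 libraries, by turn, with wild-type and homozygous libraries side by side, a point for each repeat and a horizontal line for the mean of 2. Globins and Alas2 are high in both wild-type basal libraries and in the first homozygous middle library (Hbb-bs 1757, 3404 and 2022), and Slc4a1 is high in the latter library (41.6).

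Homozygous and wild-type mice were compared within each turn with limma, fitted to all 16215 genes that reached 1 FPKM in 2 or more libraries, and a gene was called a DEG when it passed 2-fold in either direction with an adjusted p under 0.01. In the basal turn 0 of the 6 members were called by limma, where 4.29% of all genes tested were, and 5 of 6 had an unadjusted p under 0.05, all lower in homozygous mice, against 32.4% of all genes in either direction. The difference was −3.06 ± 0.95 (log2, SE) for Hbb-bs (adjusted p = 0.0565 from limma) and −3.09 ± 1.004 for Hba-a2 (adjusted p = 0.0645 from limma). For Hbb-bt it was −2.89 ± 0.93 (adjusted p = 0.0624 from limma) and for Hba-a1 −2.997 ± 0.99 (adjusted p = 0.0671 from limma). Alas2 had −2.71 ± 0.79, with the lowest adjusted p of the 6 (0.0458 from limma), and Slc4a1 had −0.93 ± 1.01 (adjusted p = 0.576 from limma). All 6 members had both homozygous basal libraries below both wild-type ones, as had 27.8% of all genes tested. As ratios of group means, the wild-type level was 8.79-fold the homozygous one for Hbb-bs, 7.95-fold for Hbb-bt, 8.01-fold for Hba-a1, 8.60-fold for Hba-a2, 7.63-fold for Alas2 and 3.60-fold for Slc4a1. The median difference of the 6 members was −2.94, beside −0.02 over all genes tested. With the near-identical copies added together, the alpha globins differed by −3.03 (adjusted p = 0.0674 from limma) and the beta globins by −3.04 (adjusted p = 0.0581 from limma).

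Markers of other cells also differed between the same basal libraries. The summed level of 21 genes of cochlear cells was 7383 and 4632 in wild-type but 1632 and 619.6 in homozygous basal libraries. That of 11 neuronal genes was 14.1 and 867 against 2923 and 3393 in the same order. The 15 neutrophil genes summed to 474 and 2126 against 134 and 184, and the 11 macrophage genes to 259 and 731 against 171 and 271. The 9 Schwann cell and myelin genes summed to 1452 and 5672 against 9466 and 14991. Of these sums, that of the macrophage genes overlapped between genotypes. In the middle turn the neuronal, Schwann cell and neutrophil sums lay the other way round. The Schwann cell and myelin sum was 20166 and 5842 (wild-type) against 819 and 783 (homozygous). The neuronal sum was 1560 and 1709 (wild-type) against 381 and 53.3 (homozygous), and the neutrophil sum 48.6 and 273 against 6813 and 376. The cochlear and macrophage sums overlapped in that turn. The part of these cells in the globin difference was not tested.

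In the apical turn 0 of 6 members were called by limma, where 0.179% of all genes were, and 0 had an unadjusted p under 0.05, against 16.4% of all genes. The differences ran from 0.25 for Slc4a1 to 0.96 for Hbb-bt, with adjusted p between 0.665 and 0.934 from limma. None of the 6 was without overlap between genotypes, where 59% of all genes were. In the middle turn 0 of 6 were called by limma, where 0.179% of all genes were, and 1, Slc4a1, had an unadjusted p under 0.05, against 25.4% of all genes. Slc4a1 differed by 2.80 ± 1.01 (log2, SE; adjusted p = 0.132 from limma), and it was the only member whose middle libraries did not overlap between genotypes, where 59.5% of all genes did not. The globins and Alas2 had middle turn differences between 0.46 for Hba-a2 and 1.07 for Hbb-bt. Without the first homozygous middle library these became negative, from −0.85 for Hba-a2 to −0.33 for Hbb-bt. Without the first wild-type middle library they were negative for Hba-a2 (−0.61), Hba-a1 (−0.37), Alas2 (−0.35) and Hbb-bs (−0.08) and 0.38 for Hbb-bt. Without the first homozygous middle library that of Slc4a1 was 1.10 (adjusted p = 0.481 from limma), with the remaining homozygous library assumed to vary like the other groups. The sign of the middle turn difference of the globins and Alas2 therefore rested on single libraries.

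Averaged over the turns, the homozygous minus wild-type difference lay between −0.74 for Hba-a2 and 0.71 for Slc4a1, with 0 of 6 members called by limma, where 0.376% of all genes were, and 0 with an unadjusted p under 0.05, against 18.6% of all genes. Without the first homozygous middle library it was −0.93 for Hbb-bs in place of −0.51 and 0.14 for Slc4a1.

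**Figure D2:**
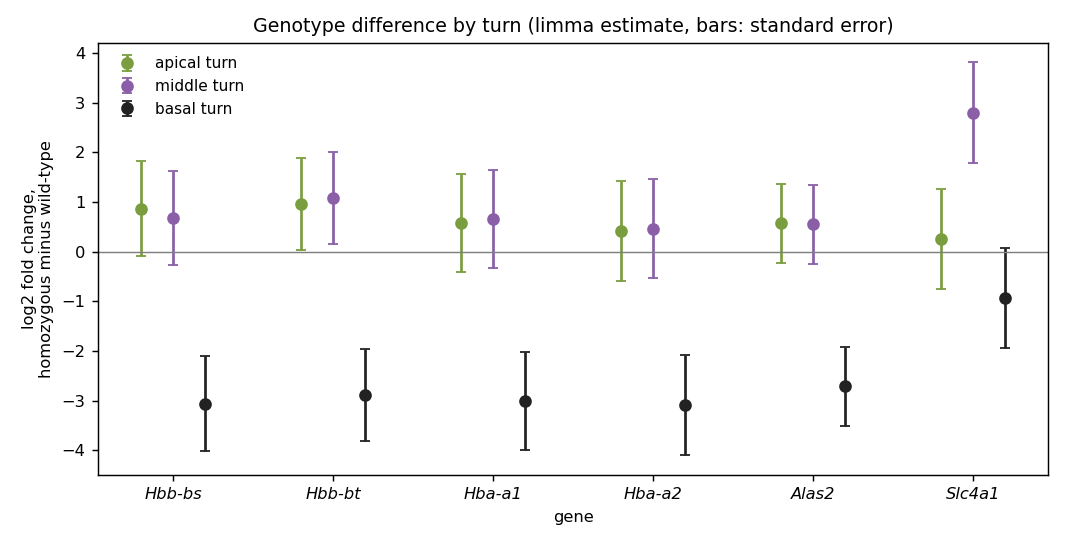
Difference of homozygous minus wild-type mice on the log2(scaled FPKM + 1) scale for the 6 members in each turn, from limma, with bars for the standard error. The 4 globins and Alas2 lie between −3.09 and −2.71 in the basal turn and between 0.42 and 1.07 in the other turns, and Slc4a1 lies at 2.80 in the middle turn.

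Whether the genotype difference itself differed between turns was tested as an interaction in the same fit. Between the basal and apical turns 0 of 6 members were called by limma, where 0.796% of all genes were, and 5 had an unadjusted p under 0.05, against 28.4% of all genes. The interaction was −3.92 ± 1.35 (log2, SE) for Hbb-bs (adjusted p = 0.0924 from limma), lay between −3.84 and −3.28 for the other globins and Alas2, and was −1.18 for Slc4a1 (adjusted p = 0.631 from limma). Between the basal and middle turns 0 of 6 were called by limma, where 8.91% of all genes were, and 6 had an unadjusted p under 0.05, against 37.7% of all genes. These interactions ran from −3.95 for Hbb-bt to −3.26 for Alas2, with adjusted p between 0.0593 and 0.103 from limma, and without the first homozygous middle library from −2.56 for Hbb-bt to −2.02 for Slc4a1. Between the middle and apical turns 0 of 6 members and 0% of all genes were called by limma, and 0 members and 8.05% of all genes had an unadjusted p under 0.05. A genotype difference particular to the basal turn was thus not shown for any member at the threshold used.

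With the genotypes averaged, the members were higher in the basal than in the apical turn by 1.76 for Hbb-bs, 1.56 for Hbb-bt, 1.499 for Hba-a1, 1.26 for Hba-a2, 1.43 for Alas2 and 0.20 for Slc4a1, none of them called by limma (0 of 6, beside 0.438% of all genes) and 3 with an unadjusted p under 0.05, against 25.4% of all genes. The middle turn exceeded the apical turn by between 1.10 for Hba-a2 and 1.40 for Hbb-bs, with 0 of 6 members called by limma, where 0.037% of all genes were, and 1, Alas2, with an unadjusted p under 0.05, against 12.1% of all genes. Without the first homozygous middle library the latter range was 0.40 for Slc4a1 to 0.82 for Alas2. Between the basal and middle turns the members differed by between −1.05 for Slc4a1 and 0.36 for Hbb-bs, with 0 of 6 members and 0% of all genes called by limma, and with 0 members and 6.83% of all genes at an unadjusted p under 0.05.

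The globins and Alas2 kept close proportions while their levels varied over a wide range. Across the 12 libraries, Pearson's r of log2 levels between any pair of the 4 globins and Alas2 was between 0.955 and 0.995. That between Slc4a1 and these genes was between 0.597 and 0.666, and between 0.542 and 0.656 without the first homozygous middle library. By ranks (Spearman's rho) it was between 0.664 and 0.776, and by deviations from the group means, in which 6 values are independent, r was between 0.795 and 0.898, beside 0.932 to 0.997 among the globins and Alas2. The libraries share turn, genotype and, for the globin pairs, sequence, so these values describe the libraries and have no test.

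Per 1000 scaled FPKM of summed globin, Alas2 was between 9.53 in the second wild-type basal library and 14.4 in the second wild-type middle library, a 1.51-fold range beside a 21.6-fold range of the globin sum itself. Slc4a1 on the same scale was 12.1 in the first homozygous middle library and 5.41 in the second. It was 0.223 in the second wild-type basal library, the lowest of the 12, and 1.35 in the first. The range of Slc4a1 per globin was thus 54.4-fold over all libraries and 24.3-fold without the first homozygous middle library.

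The summed beta globins exceeded the summed alpha globins in each library, by 1.59- to 3.35-fold in wild-type and 2.14- to 2.48-fold in homozygous mice, with the highest ratio in the second wild-type basal library. FPKM is per length of transcript, but reads shared by copies were dropped, so the ratio is not one of chains. Hba-a1 made up between 65.2% and 73.3% of the alpha sum, and Hbb-bs between 84.9% and 89.5% of the beta sum. The lowest share of Hbb-bs was that of the first homozygous middle library.

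**Figure D3:**
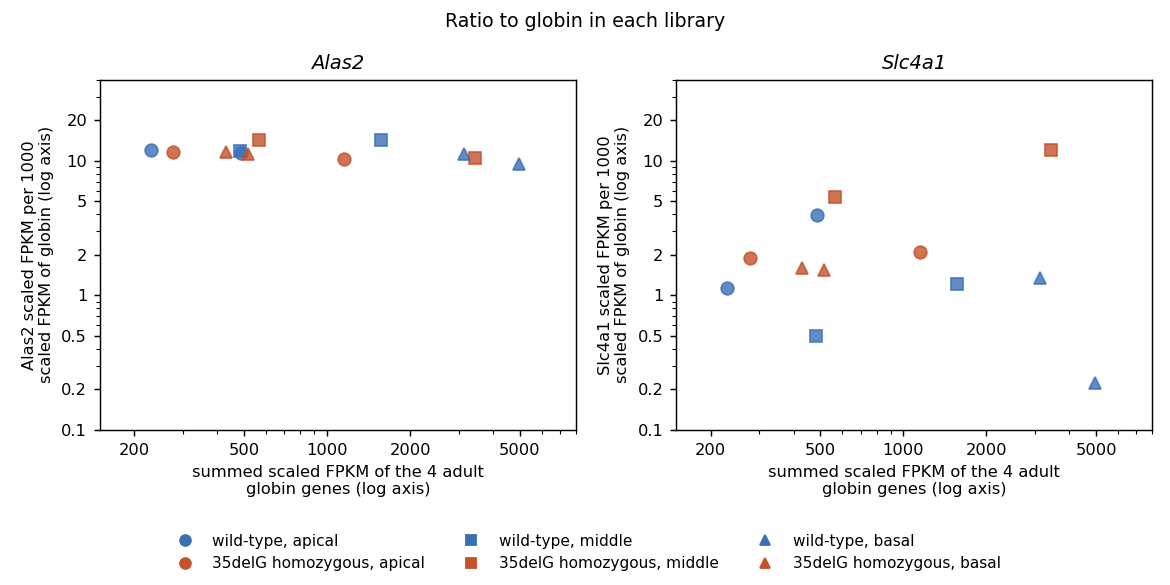
Scaled FPKM of Alas2 and of Slc4a1 per 1000 scaled FPKM of summed adult globin (vertical, log axis) against the summed globin (horizontal, log axis), with a point for each of the 12 libraries, its shape giving the turn and its colour the genotype. Alas2 stays between 9.53 and 14.4, while Slc4a1 runs from 0.223 in the second wild-type basal library to 12.1 in the first homozygous middle library.

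Other genes of the red cell lineage were taken from lists. Of the 15 genes of haem synthesis and its mitochondrial transport, all tested, limma called 0 for the basal turn (beside 4.29% of all genes; at an unadjusted p under 0.05, 0 were higher and 2 lower, beside 32.4% of all genes in either direction), and the median difference was −0.06 beside −0.02 over all genes. In the apical and middle turns their medians were 0.33 and 0.55, beside −0.03 and 0.04 over all genes, again with 0 called by limma (beside 0.179% of all genes in each turn). At an unadjusted p under 0.05, 4 were higher in the apical turn, where 16.4% of all genes passed in either direction, and 6 in the middle turn, where 25.4% did. The most abundant were Tmem14c, a mitochondrial porphyrin transporter (27.5 to 63.8 scaled FPKM over the 12 libraries), Slc25a39, a mitochondrial carrier (25.2 to 58.5), and Alad, the enzyme after Alas in the pathway (16.7 to 40.1). Alas1, the form of the first enzyme that other tissues use, was between 7.23 and 14.8, a narrow range beside that of Alas2, and is named, as Hbb-y is below, after its values were seen. Ppox, which makes protoporphyrin, was called for the basal against middle interaction (−1.27; adjusted p = 0.00737 from limma) and lost the call without any 1 of 9 libraries (adjusted p up to 0.0295 from limma), all but the homozygous apical ones and the second wild-type basal one.

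Of 20 red cell membrane genes 14 were tested, and in the basal turn 1 was called higher and 0 lower by limma, beside 4.29% of all genes called. The median was −0.07 beside −0.02 over all genes, with genes moving both ways. At an unadjusted p under 0.05 from limma, 5 were higher and 3 lower, beside 32.4% of all genes in either direction. The called gene was Dmtn, an actin-bundling protein of the membrane skeleton that neurons also make. Wild-type basal libraries held it at 8.70 and 9.98, homozygous ones at 30.8 and 23.1 (1.42 ± 0.18, log2, SE; adjusted p = 0.00438 from limma), opposite in direction to the globins. Its call was lost without any 1 apical library, the first wild-type basal or the first homozygous basal library (adjusted p 0.0111 to 0.0187 from limma). Dmtn was also called for the basal against apical interaction (1.82; adjusted p = 0.00871 from limma; lost without any 1 library but the second wild-type basal one, adjusted p up to 0.0585) and for the basal against middle one (1.74; adjusted p = 0.00329 from limma; lost without the first wild-type middle or the second homozygous middle library, adjusted p up to 0.0132). The latter interaction was also called for Gypc, glycophorin C (1.97; adjusted p = 0.00505 from limma), and lost without any 1 of 9 libraries (adjusted p up to 0.0178), all but the first homozygous middle and the wild-type basal ones. The most abundant genes of the list were Tmod1, a capping protein of actin filaments, Epb41, protein 4.1, and Slc29a1, a nucleoside transporter, which other tissues also use. Tmod1 in the basal turn was at 243 and 82.5 (wild-type) against 30.4 and 13.6 (homozygous; −2.74 ± 0.53, log2, SE; adjusted p = 0.0116 from limma), Epb41 ran from 9.30 to 75.0 and Slc29a1 from 21.3 to 52.4.

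Of 18 genes of red cell maturation 17 were in the table and 15 were tested. In the basal turn 1 was called higher and 1 lower by limma, beside 4.29% of all genes called, with a median of −0.33 beside −0.02 over all genes. At an unadjusted p under 0.05 from limma, 2 were higher and 5 lower, beside 32.4% of all genes in either direction. Ube2o, a ubiquitin ligase that clears proteins from maturing red cells, was higher in homozygous basal libraries (5.93 and 8.44 against 22.9 and 17.7; 1.38 ± 0.24, log2, SE; adjusted p = 0.00842 from limma). Tent5c, a poly(A) polymerase, was lower (11.1 and 5.89 against 2.57 and 1.80; −1.53 ± 0.26; adjusted p = 0.00828 from limma). Both calls were lost without any 1 library but the second wild-type basal one (adjusted p up to 0.0450 for Ube2o and 0.0360 for Tent5c from limma). Both were also called for the basal against middle interaction, at 1.98 for Ube2o (adjusted p = 0.00512 from limma) and −2.44 for Tent5c (adjusted p = 0.00372 from limma). These were lost for Ube2o without any 1 of 9 libraries (adjusted p up to 0.0213), all but the first homozygous middle, the second wild-type basal and the second homozygous basal ones, and for Tent5c without any 1 middle library or the second homozygous basal one (adjusted p up to 0.0155). The most abundant genes of the list were Car2, carbonic anhydrase (41.3 to 169), Bnip3l, which removes mitochondria (41.9 to 61.1), and Mkrn1, a ubiquitin ligase (35.1 to 49.9).

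Of 14 regulators of the lineage 8 were tested, of which limma called 0 for the basal turn (beside 4.29% of all genes; at an unadjusted p under 0.05, 1 was higher and 2 lower, beside 32.4% of all genes), with a median of −0.58 beside −0.02 over all genes. The most abundant were the transcriptional cofactors Cited2 (29.5 to 75.8), Ldb1 (42.1 to 67.7) and Zfpm1 (3.27 to 16.4), which act in other tissues too.

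The first homozygous middle library differed from the wild-type basal libraries in which erythroid genes were high, although its globin level was close to theirs. Its adult globin genes had a median difference of −0.14 (log2 ratio, 1 added to both values) from the wild-type basal mean, whereas the red cell membrane genes had 1.64 and the regulators 1.54, beside 0 over 36005 genes. Those 36005 genes were not filtered by level, and the 1 added draws the ratios of low values towards 0. More than 2-fold above the wild-type basal mean were 14 of 20 membrane genes, 11 of 14 regulators, 6 of 17 maturation genes and 4 of 15 haem synthesis genes, where 16.9% of all genes were. The genes named next were chosen after their values were seen. Gata1, the defining transcription factor of the lineage, was at 6.35 in that library and at most 0.534 in the other 11, with 5 libraries listed at 0. Klf1, the activator of the adult beta globins, was at 11.1 against at most 0.846. Rhd, of the Rh blood group complex, was at 14.7 against at most 0.955, and Hemgn, a nuclear protein of precursors, at 15.0 against at most 0.649.

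Other listed genes were high in both kinds of library, as the globins were. Isg20, an RNA exonuclease named after its values were seen, was at 5.75 and 11.9 in the wild-type basal libraries and 13.6 in the first homozygous middle library, and Ube2l6, a ubiquitin-like conjugating enzyme, at 15.8 and 24.9 against 27.6. Per gene, the first homozygous middle library was the highest of the 12 in 12 of 20 membrane genes, 10 of 14 regulators, 9 of 17 maturation genes and 6 of 15 haem synthesis genes, beside 10.7% of all genes, and in 0 of 4 adult globins.

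**Figure D4:**
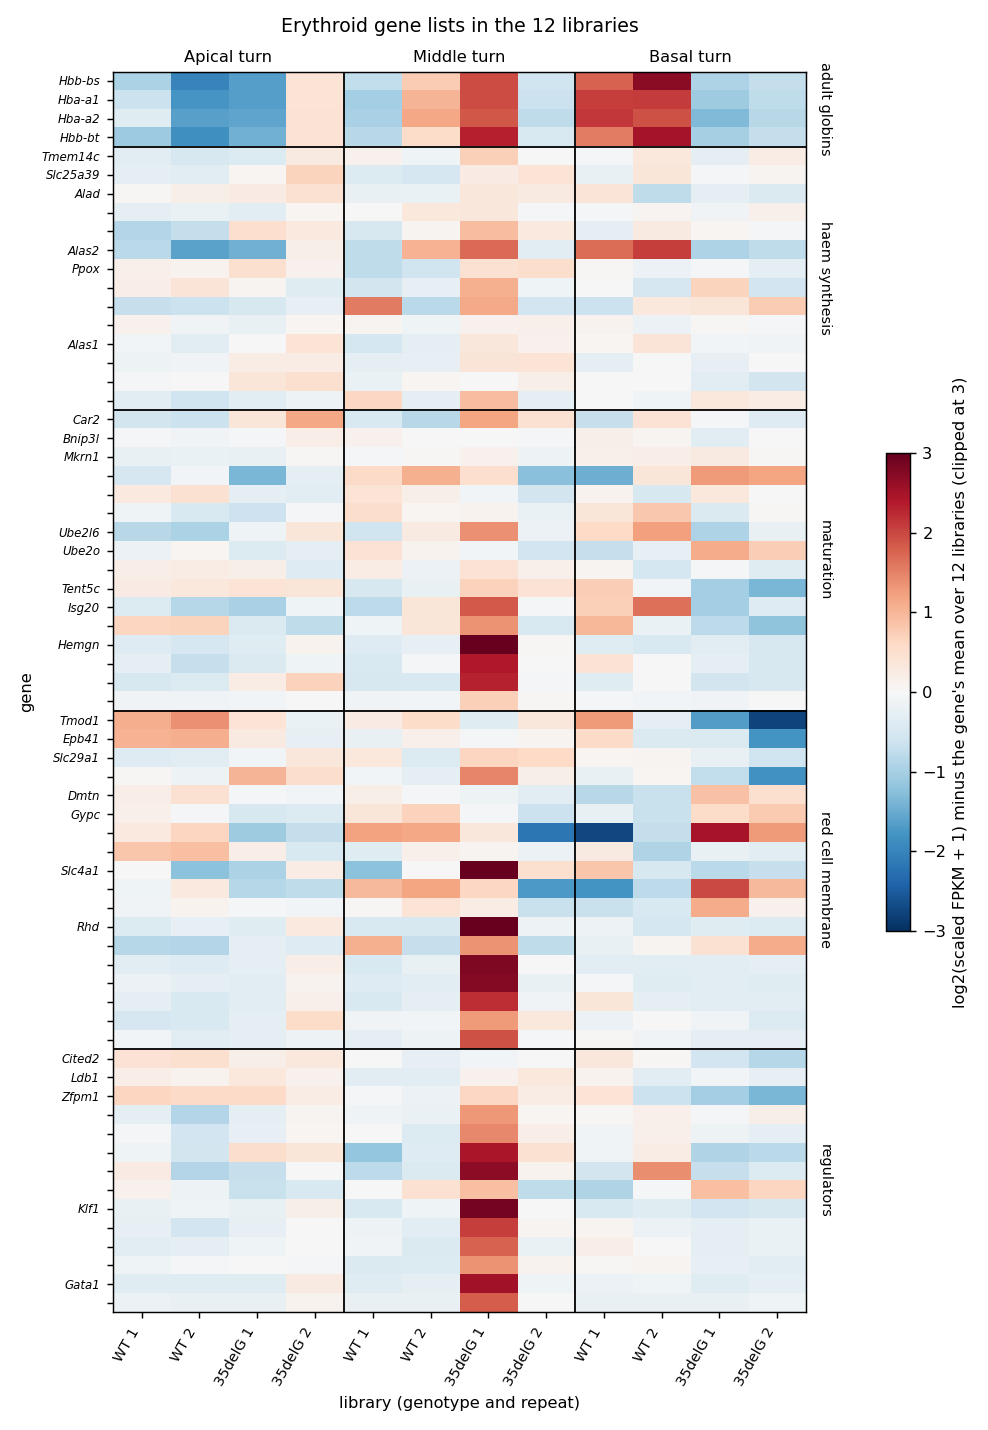
Heat map of the adult globin, haem synthesis, maturation, membrane and regulator lists (rows, genes) in the 12 libraries (columns), coloured by log2(scaled FPKM + 1) minus the gene's mean, with the colour limited at 3 in either direction. The globins and Alas2 are high in both wild-type basal libraries and the first homozygous middle library, and Gata1, Klf1 and Slc4a1 are highest in the latter. Rows are labelled for the genes named in the text, and a few listed genes that are not reported by name are left out of the picture.

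Genes of other blood and marrow cells were also high in the first homozygous middle library. The 15 neutrophil genes summed to 6813 there, 2126 in the second wild-type basal library and between 38.4 and 557 in the other 10, and all 15 were highest in that library. S100a9, a calcium-binding protein of neutrophils, was at 2626 there, at 902 in the second wild-type basal library and between 12.8 and 179 elsewhere. S100a8, its partner, was at 2115, 827 and between 12.4 and 150 in the same libraries, and Ngp, a granule protein, at 689, 113 and between 4.85 and 79.0. Between the genotypes, 0 of the 15 were called by limma in any turn, beside 4.29% of all genes in the basal turn and 0.179% in either of the others. Their median difference was −1.74 in the basal turn, where 0 of 15 and 32.4% of all genes had an unadjusted p under 0.05, and 2.67 in the middle turn, where 9 of 15 and 25.4% of all genes had (medians over all genes −0.02 and 0.04).

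The 12 platelet genes summed to 159.8 in the first homozygous middle library and to between 6.22 and 37.4 in the others. Of the platelet genes with the highest levels, Pf4 was at 47.3 there against at most 25.1, Ppbp at 69.8 against at most 6.78 and Itga2b at 9.13 against at most 5.93. The 10 B cell genes summed to 167 there and to between 20.01 and 66.3 in the others. Cd79b and Cd79a, the signalling chains of the B cell receptor, were at 34.0 and 29.4, the next library being the second wild-type basal one at 13.9 and 8.60. Ebf1, which stromal cells also express, was not high there (25.6, in a range of 13.2 to 33.5).

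The 12 cell cycle genes summed to 186 in the first homozygous middle library and to between 3.96 and 27.6 in the others, and the 9 osteoclast genes to 405 against 13.3 to 96.8. The 10 osteoblast genes summed to 3799 there, 5466 in the second wild-type basal library and 997 to 2797 in the others. The 11 macrophage genes summed to 665 in the first homozygous middle library, 731 in the second wild-type basal library and 90.2 to 271 in the others. Lyz2 made up most of both high sums, at 455 and 462 against 26.9 to 89.2 in the others. C1qb (49.1 and 62.3) and C1qa (47.7 and 50.7) were less set apart, at 47.9 and 46.6 in the second homozygous basal library. Across these lists no gene was at 0 in every library. The second wild-type basal library, highest in summed globin, thus held the second highest neutrophil, B cell, platelet, cell cycle and osteoclast sums, whereas the first, with 3137 of globin, had a neutrophil sum of 474, within the range of the other 9 libraries. The part of these cells in the erythroid values was not tested.

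**Figure D5:**
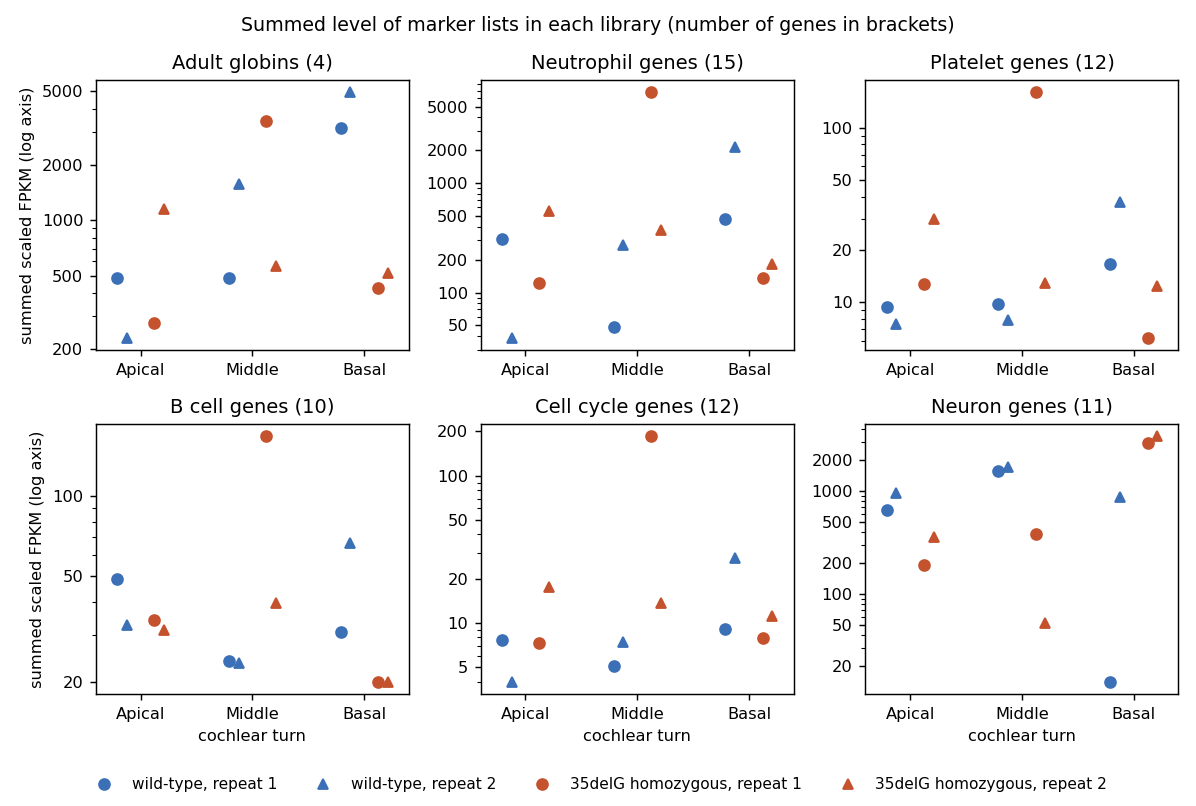
Summed scaled FPKM (log axis) of the adult globins and of the neutrophil, platelet, B cell, cell cycle and neuronal lists in each library, by turn and genotype, with the number of genes in brackets. The first homozygous middle library is highest for neutrophil (6813), platelet (159.8), B cell (167) and cell cycle genes (186), and the homozygous basal libraries are highest for neuronal genes (2923 and 3393).

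Globins other than the adult ones were low or followed another pattern. Hbb-y, an embryonic beta-like globin, was listed at 0 in 11 of the 12 libraries and at 0.118 in the second homozygous apical one. Hbq1b, of the theta globin kind, was at 1.69 in the first homozygous middle library and at most 1.17 elsewhere. Cygb, cytoglobin, which fibroblast-like cells and some neurons make, was at 1.26 and 11.9 in wild-type basal against 33.2 and 38.1 in homozygous basal libraries, not called by limma (2.76 ± 0.69, log2, SE; adjusted p = 0.0262). Mb, myoglobin of muscle, lay between 0.469 and 2.56. Hba-x, Hbb-bh0, Hbb-bh1, Hbb-bh2, Hbb-bh3, Hbb-b1 and Hbb-b2 were not analysed here.

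Among the 9460 genes, members left out, whose mean reached 5 scaled FPKM, the 10 whose log2 levels were most like the log2 globin sum over the 12 libraries had Pearson's r between 0.887 and 0.939. They were Zdhhc6, Apobec1, Cstdc4, Cstdc5, Ube2l6, Cyb5r4, Clec2d, Riok3, Atg4a and Stfa1. Some of these moved little, Zdhhc6 from 12.2 to 15.7 and Riok3 from 16.1 to 21.4, and others widely, Cstdc4 from 0 to 34.6, Cstdc5 from 0.311 to 36.8 and Stfa1 from 0 to 24.7. By deviations from the group means, in which the repeats of a group mirror each other and 6 values are independent, the 10 most alike were Krr1, Mrps18b, Tmem168, Zmpste24, Cab39, Ly6c2, Mthfd2, Camp, Ngp and Ltf (r between 0.960 and 0.987). Camp, Ngp and Ltf are granule proteins of neutrophils and are in the neutrophil list. Ube2l6 was the only gene of the erythroid lists among these 20.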

How the data were processed

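RNA of 12 cochlear samples (2 genotypes by 3 turns, 2 repeats each) was sequenced as 150 bp paired ends on a NovaSeq6000 after library preparation with the VAHTS Universal V8 kit. The authors trimmed reads with fastp 0.20.0, aligned them to mm10 with STAR 2.7.3a, kept uniquely mapped reads and deposited FPKM values per gene from StringTie 2.0 (names and versions from the submitters' processing notes); the annotation version is not given in the sources used here, and their read counts and DESeq2 results were not used. FPKM values hold no read counts, so depth and counting error are unknown and precision rests on the repeats.

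FPKM were divided by median-of-ratios factors over 11552 genes at 1 FPKM or more in every library. log2(scaled FPKM + 1) of 16215 genes (1 FPKM or more in at least 2 libraries) was fitted with limma 3.58.1 (R 4.3.3), with 6 group means, a trend in eBayes, two-sided tests and Benjamini-Hochberg adjustment over all genes tested. As in the study, a call needed over 2-fold and an adjusted p under 0.01. The fit was tested on simulated data with independent normal noise. These held no shared animals and no outlying library, so they do not check the fit against either.

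Members, gene lists and naming rule (members, Gjb2, the 3 most abundant genes of each erythroid or blood list, genes called, and the 10 genes most like globin by each measure) were chosen with earlier results of these data known. Genes outside this rule are said to be so. A few listed genes are counted in their lists but not reported here by name. Sequences came from GENCODE M21 transcripts and the RefSeq promoter table of GRCm38.p6. Motif letters were searched on both strands. Alternatives (scaling, pseudocount, filter, weights, trend, replicate block, summed copies, thresholds, libraries left out) are given in the closing section. Repeat numbers were checked for pairing: the deviations of same-numbered libraries of both genotypes correlated at −0.0694 (apical), −0.00910 (middle) and 0.207 (basal) and those of different turns of a genotype at between −0.415 and 0.267. The labels give no link between them, so they were not treated as pairs.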

Additional observations from a re-analysis of the deposited data

Results flagged for a closer look

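Slc4a1 was higher in both homozygous than in both wild-type middle libraries (2.80 on the log2 scale) and lower in both homozygous than in both wild-type basal libraries (−0.93), without overlap in either turn. This opposite direction led to its listing here. In the middle turn 59.5% of all genes tested were without overlap in either direction. In the basal turn 27.8% were without overlap and lower in homozygous mice. The share of all genes with the opposite pattern was not counted. The basal levels of Slc4a1 were low, at 4.25 and 1.10 (wild-type) against 0.685 and 0.803 scaled FPKM (homozygous). The difference between the turns was tested in limma as an interaction, at −3.73 ± 1.43 (SE; adjusted p = 0.0933 from limma), which does not pass the threshold, and at −2.02 (adjusted p = 0.206 from limma) without the first homozygous middle library. The outlier test needs groups of 4 or more samples and could not be made with 2 per group.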

How the results depend on the processing

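Of the 60 member differences, recomputed 1508 times under the alternatives, no call was made at the study's thresholds, and Alas2 in the basal turn was called (1 of 6 members in place of 0) when the limit on the adjusted p from limma was raised to 0.05. The 6 basal turn differences kept their sign under all alternatives run: without single libraries, that of Hbb-bs lay between −3.54 and −2.58, and adjusted p of the globins and Alas2 between 0.0281 and 0.212 from limma. In 22 of the 60 results the sign changed at least once, 57 times in all, 52 of them when 1 library was left out, which leaves its group with 1 library assumed to vary like the others. No other cause was tested.

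Among the remaining 5, all for the middle against apical genotype effect, Hbb-bs was 0.061 with an equal FPKM sum and 0.056 with quantile normalization (−0.19 as reported), Hbb-bt −0.15 with copies summed (0.11) and Alas2 0.11 with FPKM as deposited and 0.19 with an equal sum (−0.03). Leaving out single libraries gave, in the apical turn, −0.17 to 1.89 for Hbb-bs, −0.45 to 1.61 for Hba-a1, −0.58 to 1.43 for Hba-a2, −0.23 to 1.38 for Alas2 and −0.36 to 0.86 for Slc4a1. In the middle turn it gave −0.60 to 1.95 for Hbb-bs, −0.33 to 2.47 for Hbb-bt, −0.65 to 1.95 for Hba-a1, −0.85 to 1.77 for Hba-a2 and −0.47 to 1.56 for Alas2, each negative without the first homozygous library and, but for Hbb-bt (0.38), without the first wild-type one (−0.08, −0.37, −0.61 and −0.35 for the others in this order). The mean of the turns was −0.75 to 0.18 for Hbb-bt. The middle against apical genotype effect was −1.46 to 1.09 for Hbb-bs, −1.28 to 1.51 for Hbb-bt, −1.23 to 1.38 for Hba-a1, −1.27 to 1.35 for Hba-a2 and −1.04 to 0.99 for Alas2. The basal against apical turn difference was −0.13 to 0.53 for Slc4a1, and the basal against middle one −0.28 to 0.999 for Hbb-bs, −0.52 to 0.88 for Hbb-bt, −0.40 to 0.90 for Hba-a1, −0.50 to 0.81 for Hba-a2 and −0.40 to 0.61 for Alas2.

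Without mitochondrial genes in the sum, the globin share was 1.41% in the second wild-type basal library and 0.145% and 0.154% in the homozygous basal libraries. With the repeat number as a replicate block, 0 of 6 members were called in each comparison, and 177 in place of 696 genes in the basal turn. That count was 1954 at an adjusted p under 0.05, 0 when only the 4 libraries of the turn were fitted, and with single libraries left out, 40 (the second wild-type apical one) to 1840 (the second wild-type basal one). Over all alternatives, the number of genes called ran from 4 to 258 in the apical turn (29 as reported), 0 to 475 in the middle turn (29), 13 to 301 for the mean of the turns (61), 0 to 1810 for the basal against apical interaction (129) and 280 to 3214 for the basal against middle one (1445). The depth is unknown, so the counting error of low values such as those of Slc4a1 is not known.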

Other observations

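Genes whose products bind, take up or break down haemoglobin and haem formed a further list. Of its 13 genes 11 were tested in limma, and in the basal turn 0 were called, beside 4.29% of all genes, with 0 higher and 3 lower in homozygous mice at an unadjusted p under 0.05, beside 32.4% of all genes in either direction. Their median difference was −0.60, beside −0.02 over all genes. The most abundant were the ferritin chains, which store iron, and the haem transporter Slc48a1. Fth1, the heavy chain, lay between 826 and 3014 scaled FPKM, with the highest value in the first wild-type middle library. Ftl1, the light chain, lay between 319 in the first homozygous basal and 1062 in the second wild-type basal library, and Slc48a1 between 34.5 and 68.5.

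The genes Hp, Hmox1 and Blvrb of this list, named after their values were seen, were high in single libraries. Hp, haptoglobin, which binds free haemoglobin and is also held in neutrophil granules, was at 68.2 in the first homozygous middle library and at most 14.6 in the others. Hmox1, haem oxygenase, was at 48.9 in the second wild-type basal library and at most 13.9 in the others, and at 8.62 in the first wild-type basal library, whose summed globin was 3137. Blvrb, biliverdin reductase B, was at 42.0 in the first homozygous middle library and at most 24.3 in the others.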
